A study of Mus musculus with 15 samples.

Results

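Kupffer cells are the macrophages that live inside the sinusoids of the liver. They take up microbes, debris and aged red cells from portal blood, and in the mouse most of them descend from embryonic precursors and renew themselves in place. When they are lost, monocytes that carry the chemokine receptor Ccr2 enter from the blood and can take on their identity. The 9 marker genes Clec4f, Vsig4, Timd4, Cd5l, Marco, Adgre1, Csf1r, Cd68 and Ccr2 were chosen by name from the 21702 genes of the count table, and all 9 passed the filter on low counts that left 12172 genes for testing.

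Whole livers of wild-type female C57BL/6 mice were sequenced in 5 groups of 3. All 15 mice carried an adeno-associated virus of serotype 8 (AAV8) given by tail vein before mating, either AAV8-null without a gene or AAV8-p21 with mouse p21 cDNA. The mice were adult virgins when injected. The null virus was given to non-pregnant (NP) mice and to mice taken at 8 and 16 days post-coitum (dpc), and the p21 virus to mice taken at 8 and 16 dpc, so no NP group with p21 was compared. The thyroxine-binding globulin promoter of the virus drives p21, an inhibitor of cyclin-dependent kinases, in hepatocytes. The 3 livers of AAV8-p21 mice at 16 dpc are lettered a, b and c, because their column numbers and their labels differ. Libraries held 12280709 to 17615185 counts, and the p21 gene Cdkn1a lay between 3.29 and 127 CPM (counts scaled to a common library size) with AAV8-null and between 347 and 1664 CPM with AAV8-p21. The 9 markers together gave 2416 to 9878 counts per library.

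Of the 9 markers, Cd5l, Clec4f and Vsig4 had the highest mean levels per kilobase of exon and Ccr2 the lowest. In CPM not divided by length, the group means of Csf1r were above those of Vsig4 in every group, such as 52.5 against 42.9 in NP livers. Those of Clec4f were above those of Cd5l. Per kilobase of exon, the mean level over the 15 livers was 44.8 ± 14.1 CPM for Cd5l (SD, n = 15), a scavenger receptor-like protein that macrophages secrete, and 44.6 ± 11.6 CPM for Clec4f, a C-type lectin restricted to Kupffer cells in the mouse. Vsig4, a receptor for complement fragments, followed with 28.8 ± 6.84 CPM per kilobase. The ranges of these 3 genes over the livers overlapped. The lowest value of Vsig4, 17.7 CPM per kilobase, was above the highest of Csf1r, 11.6, but below the highest of Marco, 28.6. Csf1r, the receptor for the macrophage growth factors CSF1 and IL-34, had 8.85 ± 1.84 CPM per kilobase. The scavenger receptor Marco had 7.69 ± 6.09, the lysosomal glycoprotein Cd68 6.36 ± 2.23, the F4/80 antigen gene Adgre1 4.86 ± 1.79 and Timd4, a receptor for phosphatidylserine on dying cells, 3.42 ± 1.17 CPM per kilobase, and the ranges of neighbours in this order overlapped. Ccr2 was lowest with 0.146 ± 0.0768 CPM per kilobase, and its highest liver, 0.308, lay under the lowest liver of Timd4, 1.51.

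None of the 9 markers passed the threshold of an adjusted p of 0.05 in any of the 7 comparisons (edgeR's quasi-likelihood test, Benjamini-Hochberg adjustment over the 12172 genes). The share of all genes called was 6.52% for 16 dpc against NP with AAV8-null, 0% for 8 dpc against NP, 6.87% for 16 dpc against 8 dpc with AAV8-null, 0.0246% for AAV8-p21 against AAV8-null at 8 dpc, 0.0739% at 16 dpc, 3.32% for 16 dpc against 8 dpc with AAV8-p21 and 0% for the interaction of virus and stage. At these shares, fewer than 1 of 9 genes would be called in each comparison. At an unadjusted p under 0.05, 2 of the 63 tests remained, Marco for AAV8-p21 against AAV8-null at 8 dpc and Ccr2 for AAV8-p21 at 16 dpc against 8 dpc. Over all genes, 5.18% and 16.4% were under that value in these 2 comparisons. The Wald test of DESeq2 also called none of the 9, while limma voom with sample weights called Cd68 for 8 dpc against NP and Ccr2 for AAV8-p21 at 16 dpc against 8 dpc. In these 2 comparisons voom called 15.2% and 14.9% of all genes, so 1 of 9 is near the background. The comparisons share livers, so their values are not independent of each other.

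**Figure D1:**
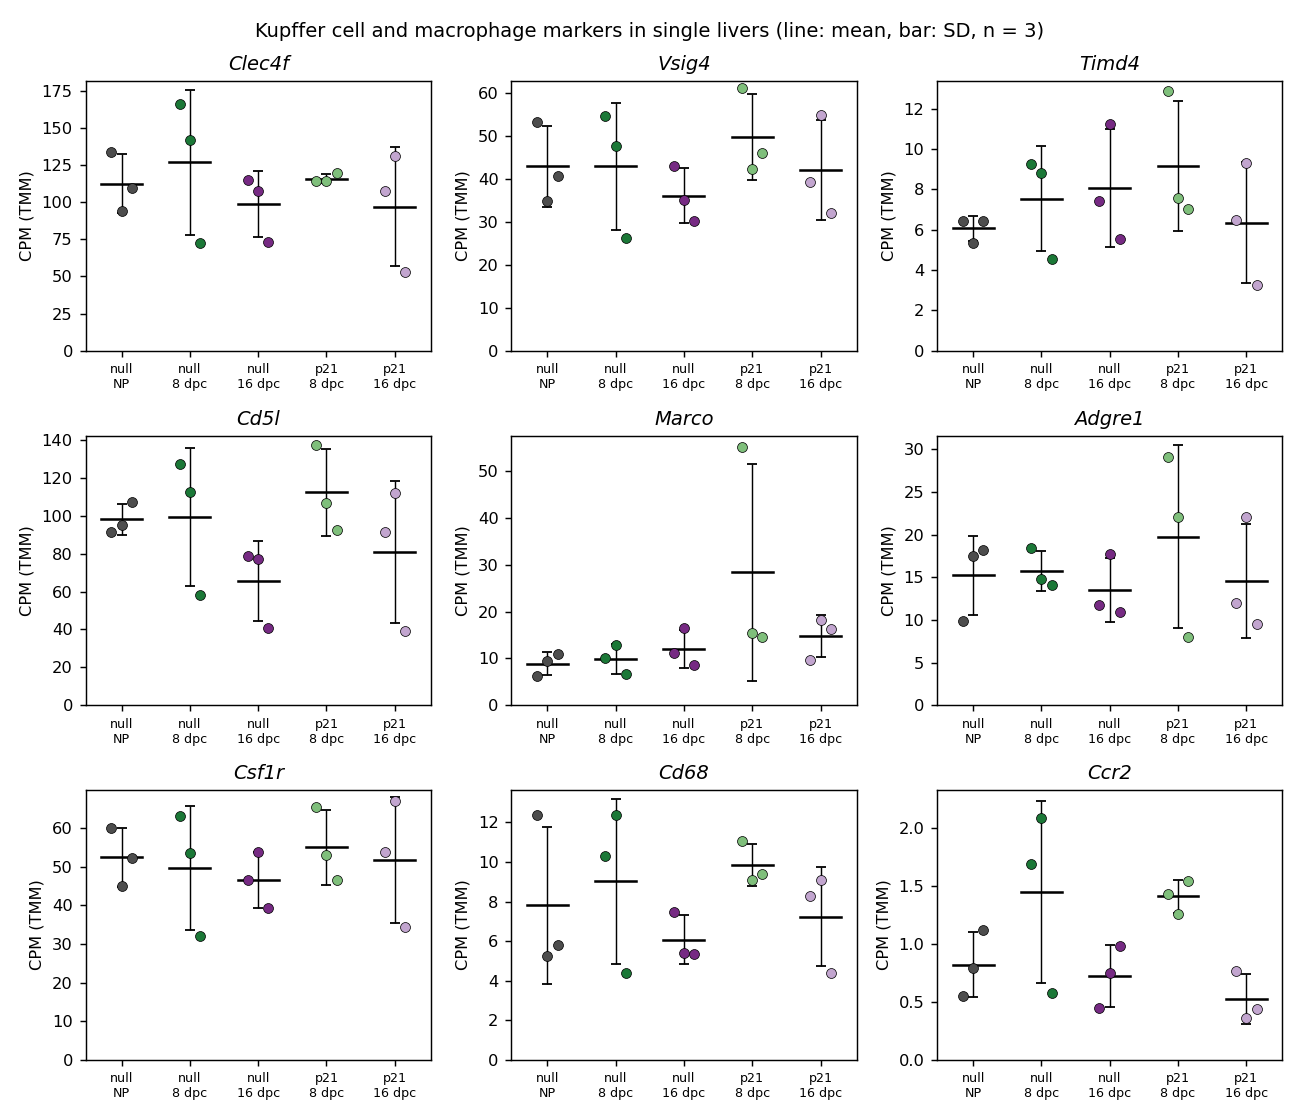
Level of each marker in single livers, in CPM with TMM normalization on linear axes that start at 0. Each point is a liver, the horizontal line is the mean of the group and the bar is the SD with n = 3. Groups overlap in most panels, Marco has 1 liver at 55.1 CPM in the AAV8-p21 group at 8 dpc, and Ccr2 stays between 0.363 and 2.08 CPM.

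The markers that define resident Kupffer cells come first. Clec4f (ENSMUSG00000014542, chr6:83644542-83656187 on the minus strand of GRCm38) had 134, 94.1 and 109.6 CPM in the NP livers. With AAV8-null it had 166, 142 and 72.4 CPM at 8 dpc and 115, 107 and 73.2 CPM at 16 dpc. With AAV8-p21 it had 114, 114 and 119 CPM at 8 dpc and 107, 131 and 53.0 CPM at 16 dpc. The AAV8-p21 livers at 8 dpc were the most alike of any group, the third liver of the AAV8-null group at 8 dpc and liver c of the last group were low, and all 5 groups overlapped. The log2 fold change was −0.19 for 16 dpc against NP (95% confidence interval −0.89 to 0.51) and 0.17 for 8 dpc against NP (−0.52 to 0.87). For AAV8-p21 against AAV8-null the estimates were −0.13 (−0.83 to 0.57) in 8 dpc mice and −0.02 (−0.72 to 0.68) in 16 dpc mice. In whole liver, fewer cells of a type and less RNA per cell cannot be told apart, for this gene and for those that follow.

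Cd5l (ENSMUSG00000015854, chr3:87357881-87371073, plus strand) was the marker whose AAV8-null groups separated between NP and late pregnancy. Its level was 91.6, 95.3 and 107 CPM in the NP livers and 78.7, 77.0 and 40.9 CPM at 16 dpc, so each late-pregnancy liver lay below each NP liver. At 8 dpc the AAV8-null livers had 127, 112 and 58.0 CPM. The log2 fold change at 16 dpc against NP was −0.58 (95% confidence interval −1.37 to 0.20, edgeR adjusted p = 0.392), with an exact two-sided permutation p of 0.1, the smallest that 3 livers against 3 can give. Of all genes tested, 12.5% separated in the same way with every 16 dpc liver below every NP liver, so 1 of 9 is near the background. With AAV8-p21, Cd5l had 137, 107 and 92.6 CPM at 8 dpc and 91.4, 112 and 39.1 CPM at 16 dpc. These 2 groups overlapped, and liver c was again the lowest.

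Vsig4 (ENSMUSG00000044206, chrX:96247203-96293438, minus strand) had 53.2, 34.8 and 40.6 CPM in NP livers, 54.7, 47.6 and 26.3 CPM at 8 dpc and 42.9, 35.1 and 30.3 CPM at 16 dpc with AAV8-null. With AAV8-p21 it had 61.0, 42.3 and 45.9 CPM at 8 dpc and 39.2, 54.7 and 32.0 CPM at 16 dpc. Every pair of groups overlapped. Its log2 fold change for 8 dpc against NP was −0.00 with a 95% confidence interval from −0.60 to 0.60, which leaves room for a rise or a fall of about 1.5-fold.

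Timd4 (ENSMUSG00000055546, chr11:46810800-46844332, plus strand) is the marker that newly recruited macrophages lack at first. It had 6.44, 5.36 and 6.43 CPM in NP livers, 9.25, 8.81 and 4.53 CPM at 8 dpc and 7.40, 11.2 and 5.52 CPM at 16 dpc with AAV8-null. With AAV8-p21 the values were 12.9, 7.59 and 7.00 CPM at 8 dpc and 6.47, 9.30 and 3.28 CPM at 16 dpc. The 3 NP livers were close together and the pregnant ones spread to both sides of them. The log2 fold change was 0.41 for 16 dpc against NP (95% confidence interval −0.42 to 1.23) and −0.34 for AAV8-p21 against AAV8-null at 16 dpc (−1.17 to 0.48).

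Marco (ENSMUSG00000026390, chr1:120474538-120505024, minus strand), which binds bacteria and particles, gave the largest difference of the 9 between the viruses. The AAV8-null livers at 8 dpc had 10.1, 12.9 and 6.66 CPM and the AAV8-p21 livers 55.1, 15.5 and 14.6 CPM, so the groups did not overlap. The log2 fold change was 1.53 (95% confidence interval 0.53 to 2.52, edgeR p = 0.00524, adjusted p = 0.601), and the exact permutation p was 0.1. Of all genes tested, 5.52% had every AAV8-p21 liver above every AAV8-null liver at this stage. The first AAV8-p21 liver decided the size of the difference, since the log2 fold change without it was 0.61, and leaving out any other liver of the 2 groups gave 1.31 to 1.83. That liver held 1116 Marco counts, and its ratio of Marco to Clec4f counts was 0.483, while the other 14 livers lay between 0.0472 and 0.308. Its Clec4f, at 114 CPM, was that of the other livers of the group. NP livers had 6.30, 9.50 and 10.9 CPM of Marco, and the 16 dpc livers 11.2, 16.5 and 8.54 CPM with AAV8-null and 9.71, 18.2 and 16.3 CPM with AAV8-p21. At 16 dpc the log2 fold change for AAV8-p21 against AAV8-null was 0.29 (−0.71 to 1.28), and the test of the difference between stages did not pass (interaction −1.24, 95% confidence interval −2.64 to 0.16).

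The markers shared by most macrophages showed the same overlap. Csf1r (ENSMUSG00000024621, chr18:61100598-61132149, plus strand) was the steadiest of the 9, with a biological coefficient of variation of 0.247 against a median of 0.239 over all genes. It had 60.1, 45.0 and 52.3 CPM in NP livers, 63.3, 53.6 and 32.0 CPM at 8 dpc and 46.6, 53.7 and 39.2 CPM at 16 dpc with AAV8-null. With AAV8-p21 it had 65.5, 53.0 and 46.5 CPM at 8 dpc and 53.7, 67.0 and 34.5 CPM at 16 dpc. The 95% confidence intervals of its log2 fold changes reached at most 0.75 to either side of 0 over the 6 comparisons between groups. Csf1r overlaps Hmgxb3 on the opposite strand, and whether the counting used the strand is not given in the sources used here, so its counts could hold reads of that gene.

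Adgre1 (ENSMUSG00000004730, chr17:57358691-57483527, plus strand) encodes the classical mouse macrophage antigen F4/80. It had 9.90, 17.5 and 18.3 CPM in NP livers, 18.5, 14.8 and 14.0 CPM at 8 dpc and 11.8, 17.7 and 10.9 CPM at 16 dpc with AAV8-null. With AAV8-p21 it had 29.1, 22.1 and 8.06 CPM at 8 dpc, which held both the highest and the lowest liver of the series, and 11.9, 22.1 and 9.54 CPM at 16 dpc. Cd68 (ENSMUSG00000018774, chr11:69664213-69666153, minus strand), a protein of lysosomes and endosomes, had 12.4, 5.24 and 5.80 CPM in NP livers, 10.3, 12.4 and 4.37 CPM at 8 dpc and 7.49, 5.42 and 5.34 CPM at 16 dpc with AAV8-null. With AAV8-p21, Cd68 had 11.1, 9.07 and 9.39 CPM at 8 dpc and 8.26, 9.09 and 4.37 CPM at 16 dpc. For 16 dpc against NP the log2 fold changes were −0.18 for Adgre1 (95% confidence interval −1.06 to 0.71) and −0.36 for Cd68 (−1.22 to 0.50).

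Ccr2 (ENSMUSG00000049103, chr9:124101950-124113557, plus strand), the receptor through which inflammatory monocytes leave the marrow and enter tissue, rested on few counts. NP livers held 8, 13 and 16 counts, AAV8-null livers 29, 35 and 11 at 8 dpc and 5, 9 and 11 at 16 dpc, and AAV8-p21 livers 29, 22 and 22 at 8 dpc and 9, 5 and 6 at 16 dpc. The AAV8-p21 livers were thus higher at 8 dpc than at 16 dpc with no overlap, at 1.43, 1.26 and 1.54 against 0.767, 0.363 and 0.437 CPM. The log2 fold change was −1.43 (95% confidence interval −2.50 to −0.37, edgeR p = 0.0119, adjusted p = 0.147), and the exact permutation p was 0.1. With every liver lower at 16 dpc, 11.4% of all genes separated likewise. In the AAV8-null mice the same step from 8 to 16 dpc had a log2 fold change of −0.98 (−2.02 to 0.05), with overlap through the third liver at 8 dpc. The difference between the viruses in this step was −0.45 (−1.94 to 1.04) and did not pass the test. Of 10 monocyte genes 7 passed the filter, among them Lyz2 with 476 to 3110 counts per liver. Ly6c2, Chil3 and F13a1, which mark classical monocytes, did not, and Ly6c2 had 1 to 10 counts per liver. Of the Ccr2 ligands, Ccl7 and Ccl12 did not pass the filter either, and Ccl2 had 2 to 66 counts, the most in the AAV8-p21 liver with the highest Marco.

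**Figure D2:**
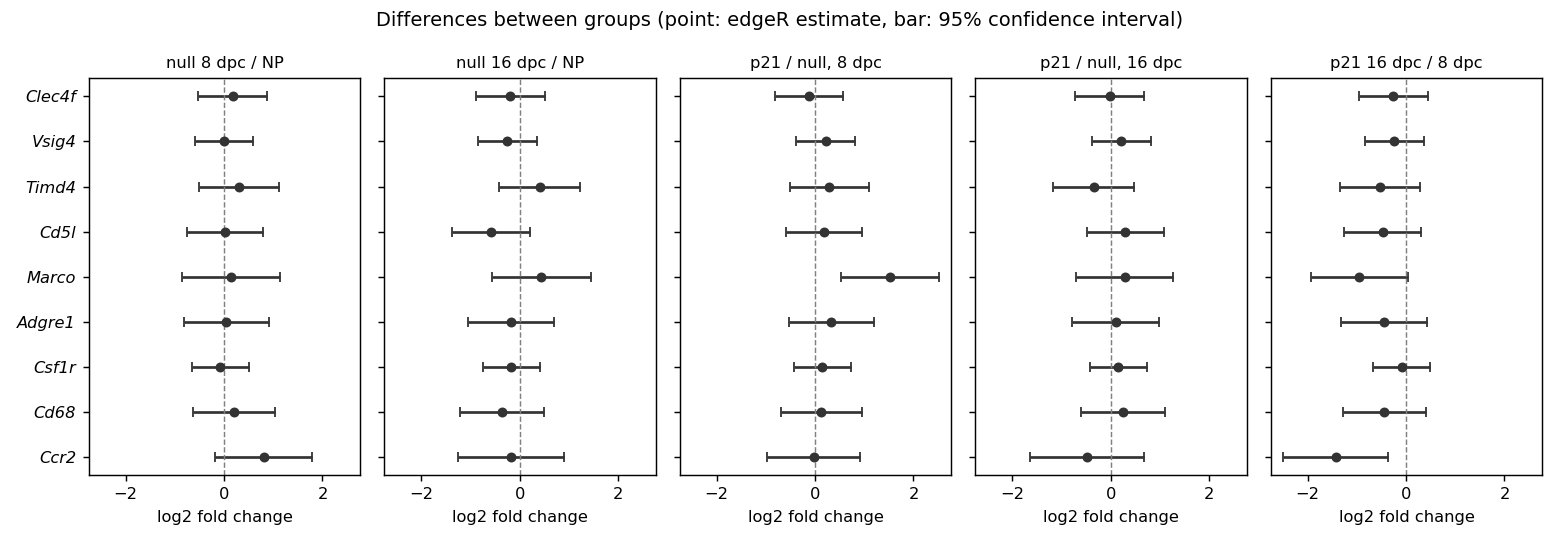
Log2 fold change of each marker in 5 comparisons, with the first-named group over the second. Points are edgeR estimates from all 15 livers and bars are 95% confidence intervals. The intervals of Marco at 8 dpc (0.53 to 2.52) and of Ccr2 for AAV8-p21 at 16 dpc against 8 dpc (−2.50 to −0.37) leave out 0, and neither gene passed after adjustment.

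The 9 markers were also read as a list, by their median and the number below 0. With AAV8-null the median log2 fold change of the 9 was −0.18 at 16 dpc against NP, beside −0.03 over all genes, with 7 of 9 below 0, where 52.5% of all genes were. It was 0.15 at 8 dpc against NP, beside −0.01, with 2 of 9 below 0 against 51.0% of all genes, and −0.25 at 16 dpc against 8 dpc, beside 0.00. For AAV8-p21 against AAV8-null the median was 0.18 at 8 dpc and 0.15 at 16 dpc, beside −0.00 at both stages. Leaving out 1 liver could turn the direction of the medians for 8 dpc against NP and for the viruses. That for 8 dpc against NP was −0.07 without the first and −0.08 without the second AAV8-null liver at 8 dpc. That for the viruses at 8 dpc was −0.09 without the third AAV8-null liver and 0.00 without the first AAV8-p21 liver, and at 16 dpc it was −0.08 without AAV8-p21 liver b. The medians for 16 dpc with AAV8-null stayed below 0 with any 1 liver of the compared groups left out, at −0.27 to −0.06 against NP and −0.50 to −0.10 against 8 dpc. From 8 to 16 dpc with AAV8-p21 the median was −0.45, beside −0.02, and 9 of 9 were below 0, where 51.9% of all genes were. In that comparison 8 of 8 pan-leukocyte genes (median −0.40), 6 of 7 tested monocyte genes (−0.60) and 9 of 14 other Kupffer cell genes (−0.15) were also below 0, and none of them was called. Their part in the marker values was not tested. Single livers moved the median of the 9 markers, which was −0.18 without liver c of the 16 dpc group and −0.20 without the first liver of the 8 dpc group.

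The size of the late-pregnancy difference depended on the scale. The albumin transcript took 9.76% to 10.8% of the counts in NP livers, 7.90% to 10.002% at 8 dpc and 23.5% to 27.8% at 16 dpc with AAV8-null, and 11.7% to 12.9% and 20.5% to 22.2% at the 2 stages with AAV8-p21. As a share of all counts the 9 markers made up 0.0384% to 0.0425% in NP livers and 0.0177% to 0.0230% at 16 dpc with AAV8-null, without overlap. TMM normalization, which centres on the bulk of genes, gave summed levels of 308 to 374 CPM and 215 to 325 CPM, which overlapped. With library totals the median of all genes at 16 dpc against NP was −0.70 and that of the markers −0.88, and 5 of 9 were called lower (Clec4f, Vsig4, Cd5l, Csf1r and Cd68), as were 48.6% of all genes, so the count is near the background. All 9 were then below 0, so Timd4 and Marco, at 0.41 and 0.44 with TMM, changed direction to −0.29 and −0.27. Relative to the median of all genes, 7 of the 9 were lower on that scale. From 8 to 16 dpc, library totals called 6 of 9 lower with AAV8-null and 7 of 9 lower with AAV8-p21, where 51.9% and 34.0% of all genes were called lower and their medians were −0.70 and −0.59.

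**Figure D3:**
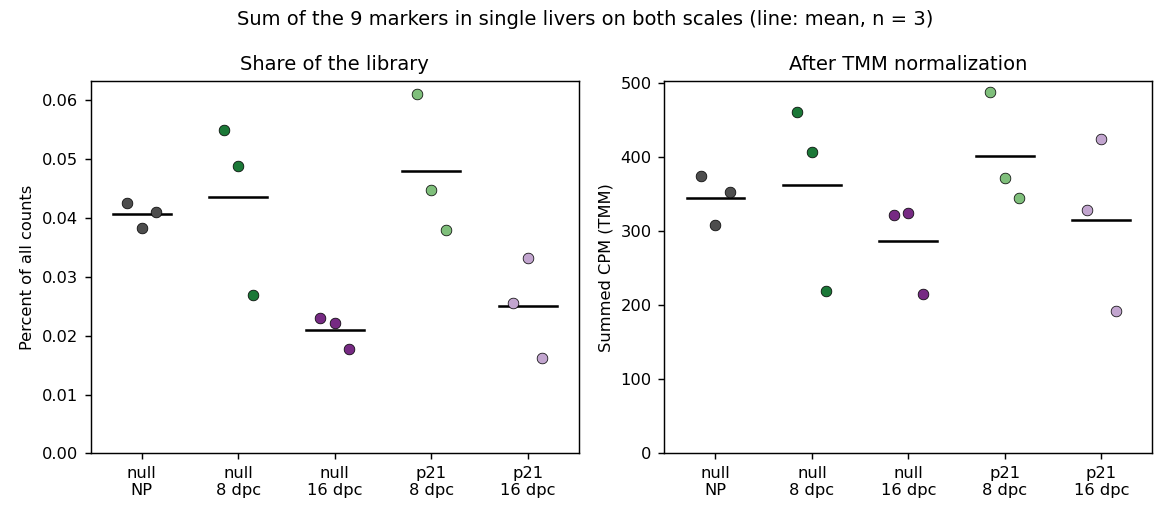
Sum of the 9 markers in single livers, as a percent of all counts of the library (left) and in CPM with TMM normalization (right). Points are livers, lines are means of 3 livers, and axes start at 0. On the left the AAV8-null livers at 16 dpc, 0.0177% to 0.0230%, lie below the NP livers, 0.0384% to 0.0425%, and on the right the 2 groups overlap.

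In 3 of the 5 groups, 1 liver was the lowest for at least 7 of the 9 markers. The third AAV8-null liver at 8 dpc was the lowest of its group for 9 of 9 markers, with a median deviation from the group mean of −0.65 on the log2 CPM scale. The third AAV8-null liver at 16 dpc was lowest for 8 of 9, and liver c of the AAV8-p21 group at 16 dpc for 7 of 9, with a median deviation of −0.53. Liver b of that group was the highest for 8 of 9, and the first AAV8-p21 liver at 8 dpc for 7 of 9. The NP livers were mixed, since the first was lowest for 4 markers and highest for 5. The third AAV8-p21 liver at 8 dpc was also mixed, lowest for 5 and highest for 2. These are descriptions of single mice, and groups of 3 always have a lowest and a highest liver.

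Over the 15 livers the median Pearson correlation of log2 CPM between 2 markers was 0.556 for the 36 pairs, and 0.585 after the group means were removed. The median correlation of a marker with all other tested genes was 0.00216. Between genes of the same list, the median was higher for proliferation (0.883), neutrophil (0.778) and sinusoidal endothelial genes (0.716) than for the markers. It was lower for the other lists, such as pan-leukocyte (0.488), stellate cell (0.456) and other Kupffer cell genes (0.293). Pairs share library and normalization, and the values describe these 15 livers. Csf1r, Clec4f and Vsig4 were the most central, with median correlations of 0.805, 0.790 and 0.756 with the other 8. Marco (0.376) and Ccr2 (0.368) were the least. The closest pair was Vsig4 and Cd68 (Pearson 0.895, Spearman 0.893), and Clec4f and Cd5l reached 0.872 (Spearman 0.696).

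The promoters of these 4 markers are shown as examples of genes that varied together over the livers. Vsig4 and Csf1r were closer, at 0.894, than Clec4f and Cd5l, but no promoter was matched for Csf1r. RefSeq sequences of GRCm38.p6 were matched for 7 of the 9 genes, each from 250 bases before to 50 bases after the start, given 5′ to 3′ on the strand of the gene. The windows are chrX:96293389-96293688 for Vsig4 and chr11:69666121-69666420 for Cd68, both on the minus strand, chr6:83656067-83656366 on the minus strand for Clec4f and chr3:87357631-87357930 on the plus strand for Cd5l. Capitals mark GAGGAA or its reverse complement TTCCTC, 1 form of the purine-rich site bound by the macrophage factor PU.1. Other forms of the site were not marked.
Vsig4: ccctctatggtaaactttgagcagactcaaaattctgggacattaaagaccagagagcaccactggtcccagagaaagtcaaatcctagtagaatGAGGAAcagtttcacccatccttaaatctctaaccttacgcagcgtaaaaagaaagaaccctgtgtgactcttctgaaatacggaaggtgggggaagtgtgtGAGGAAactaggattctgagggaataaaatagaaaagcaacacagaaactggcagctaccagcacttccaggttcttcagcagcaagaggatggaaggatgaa
Cd68: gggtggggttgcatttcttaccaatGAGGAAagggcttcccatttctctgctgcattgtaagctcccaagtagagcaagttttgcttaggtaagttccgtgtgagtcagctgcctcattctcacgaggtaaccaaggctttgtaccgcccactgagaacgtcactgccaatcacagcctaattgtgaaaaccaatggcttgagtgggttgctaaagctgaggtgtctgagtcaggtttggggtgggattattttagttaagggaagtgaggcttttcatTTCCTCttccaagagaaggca
Clec4f: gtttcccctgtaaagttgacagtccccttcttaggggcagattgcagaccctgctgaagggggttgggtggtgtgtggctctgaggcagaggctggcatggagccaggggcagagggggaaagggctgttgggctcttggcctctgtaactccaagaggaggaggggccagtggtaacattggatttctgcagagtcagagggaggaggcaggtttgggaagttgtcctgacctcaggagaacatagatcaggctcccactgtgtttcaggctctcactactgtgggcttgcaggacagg
Cd5l: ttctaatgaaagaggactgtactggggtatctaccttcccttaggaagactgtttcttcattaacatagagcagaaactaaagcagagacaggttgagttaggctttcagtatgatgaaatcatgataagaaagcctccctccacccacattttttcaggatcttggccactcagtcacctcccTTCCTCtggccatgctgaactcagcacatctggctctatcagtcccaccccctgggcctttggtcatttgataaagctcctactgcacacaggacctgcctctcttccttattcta
The 6 letters occurred 2 times each in Vsig4 and Cd68, 1 time each in Cd5l and Marco, and not in the windows of Clec4f, Timd4 and Ccr2. They occur in 28.3% of the 32851 promoter windows of the same length, so a match is common. The longer GAGGAAGT, which overlaps it, was in none of the 7 windows and in 3.2% of all.

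Genes whose level was most like a marker over the 15 livers were in part known macrophage genes. For Clec4f they were Folr2, a folate receptor of resident macrophages (Pearson 0.948), the complement gene C1qc (0.937) and Car3 (0.923). For Vsig4 they were C1qc (0.937), Il2rg (0.908) and C1qa (0.907). Cd68 was nearest to Fcgr1, the high-affinity IgG receptor (0.951), Themis2 (0.948) and Fcer1g (0.947), and Csf1r to the cathepsin gene Ctss (0.938), the receptor tyrosine kinase Axl (0.925) and Itgal (0.915). Timd4 was also nearest to Ctss (0.891), followed by Rnf8 (0.858) and Mme (0.831), and Cd5l to Sdc3 (0.949), Aldh4a1 (0.928) and Hcls1 (0.924). Adgre1 was nearest to Zeb2, a factor that Kupffer cells need to keep their identity (0.872), Grap2 (0.868) and Iqgap1 (0.866). The nearest genes of Marco were Msr1, another scavenger receptor (0.788), Grk5 (0.745) and Pfkfb4 (0.731), and those of Ccr2 were Meiob (0.897), Tifa (0.885) and Kif15 (0.883). Marco had the lowest first neighbour of the 9.

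**Figure D4:**
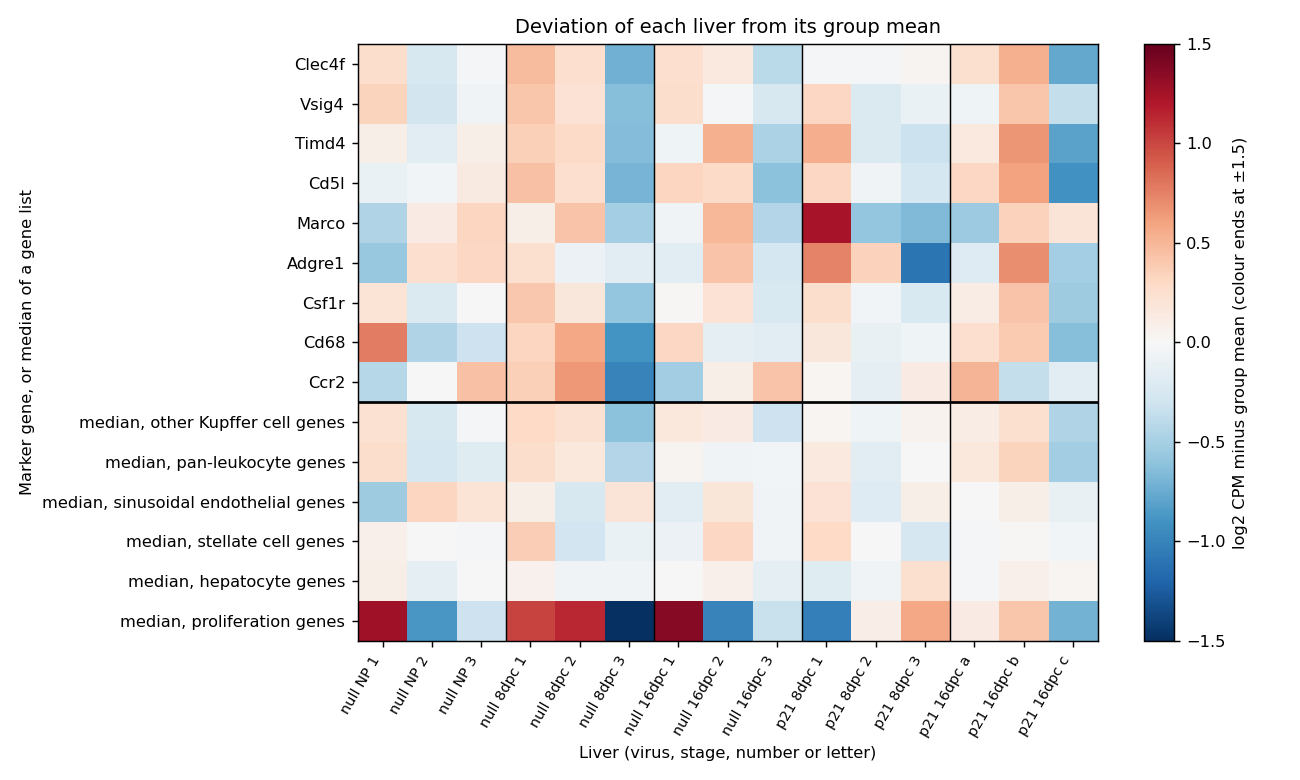
Deviation of each liver from the mean of its group in log2 CPM, for the 9 markers and, below the heavy line, for the median of 6 other gene lists. Columns are livers, red is above and blue below the group mean, and colour ends at ±1.5. The third AAV8-null liver at 8 dpc is blue in all 9 marker rows, with a median of −0.65, and its median is also low for other Kupffer cell genes and for proliferation genes, while that of sinusoidal endothelial genes is 0.19.

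Other cell types were read beside these livers. In the third AAV8-null liver at 8 dpc, the median deviation was −0.61 for 14 other Kupffer cell genes, −0.44 for 8 pan-leukocyte genes, 0.19 for 8 sinusoidal endothelial genes, −0.10 for 8 stellate cell genes and −2.18 for 6 proliferation genes. Its Mki67, a marker of cycling cells, was at 4.11 CPM against 43.8 and 45.4 CPM in the other 2 livers of the group. The part of this liver's state in the marker levels was not tested. Without it the median log2 fold change of the markers was 0.37 for 8 dpc against NP and −0.50 for 16 dpc against 8 dpc with AAV8-null, and 0 of 9 were called in both. Liver c at 16 dpc had medians of −0.45 for other Kupffer cell genes, −0.52 for pan-leukocyte genes and −0.11 for sinusoidal endothelial genes.

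Beyond the 9 markers, 14 other genes of Kupffer cells were read. Among them were the iron exporter Slc40a1, the oxysterol receptor gene Nr1h3, the transcriptional regulator Id3 and the complement genes C1qa and C1qc, and none of the 14 was called in any of the 7 comparisons. Their median log2 fold change was −0.12 at 16 dpc against NP, −0.01 at 8 dpc against NP, 0.20 for AAV8-p21 against AAV8-null at 8 dpc and 0.10 at 16 dpc. From 8 to 16 dpc it was −0.11 with AAV8-null and −0.15 with AAV8-p21. Csf1, the growth factor read by Csf1r, lay between 5.48 and 14.9 CPM over the series.

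Among 11 phagocytic and scavenger receptors, Cd36, a fatty acid and lipoprotein receptor, was the 1 gene called. It rose from 141, 92.7 and 177 CPM in NP livers to 527, 835 and 604 CPM at 16 dpc with AAV8-null, a log2 fold change of 2.26 ± 0.34 (SE, edgeR adjusted p = 0.00123), and by 1.79 from 8 to 16 dpc with AAV8-p21. Cd9, a tetraspanin, was the 1 gene called of 7 tested genes of lipid-associated macrophages and rose from 21.5, 11.6 and 7.20 CPM to 121, 91.4 and 178 CPM (log2 fold change 3.28, adjusted p = 0.000407). Both genes are also expressed by other liver cells, and both were called with library totals too. Of 10 lysosomal genes, the hexosaminidase subunit Hexa rose by 1.15 at 16 dpc against NP with AAV8-null and by 1.35 from 8 to 16 dpc with AAV8-p21, and kept its direction with library totals. Lamp1, a protein of the lysosomal membrane, rose by 0.62 with TMM but was at −0.07 with library totals.

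Genes of other myeloid cells ranged widely in counts. On the monocyte list, Lyz2, the lysozyme gene that macrophages also express, had 476 to 3110 counts per liver and Plac8 had 64 to 206. Of 7 tested monocyte genes, Itgam, the CD11b integrin chain, rose at 16 dpc with AAV8-null, from 10 to 15 counts in NP livers to 15, 61 and 71 counts (log2 fold change 2.29, edgeR adjusted p = 0.0215). The neutrophil genes S100a8, S100a9 and Retnlg, 3 of 9 on their list that passed the filter, all rose in that comparison, by 3.99, 3.77 and 3.80 on the log2 scale. S100a8 went from 7, 3 and 2 counts in NP livers to 37, 21 and 91 counts at 16 dpc. Its values at 8 dpc were 48, 34 and 94 counts, so the third AAV8-null liver at 8 dpc, lowest for every marker, was highest of its group for this gene. Summed levels were 1.09 to 3.67 CPM for 4 B cell genes and 2.05 to 6.09 CPM for 10 T and NK cell genes.

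Genes of the other non-parenchymal cells were set beside the markers at 8 dpc. With AAV8-null, 8 of 8 sinusoidal endothelial genes and 8 of 8 stellate cell genes had a log2 fold change below 0 against NP, with medians of −0.83 and −0.62, and none was called. Of the 9 markers 2 were below 0, and of all genes 51.0% were. The marker median of 0.15 turned to −0.07 without the first and −0.08 without the second AAV8-null liver at 8 dpc. The summed level of the endothelial genes was 204 to 365 CPM in NP livers and 149 to 198 CPM at 8 dpc, and that of the stellate genes 344 to 397 and 186 to 288 CPM, without overlap. That of the markers was 308 to 374 and 219 to 461 CPM. The difference between the lists was not tested. From 8 to 16 dpc with AAV8-null, the endothelial genes Clec4g and Pecam1 rose by 0.80 and 1.16 and the stellate gene Dcn by 1.04 (edgeR adjusted p = 0.0206, 0.0318 and 0.0144), each with no call on library totals, while the pan-leukocyte gene Lcp1, an actin-bundling protein, fell by 0.61 (adjusted p = 0.0178).

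**Figure D5:**
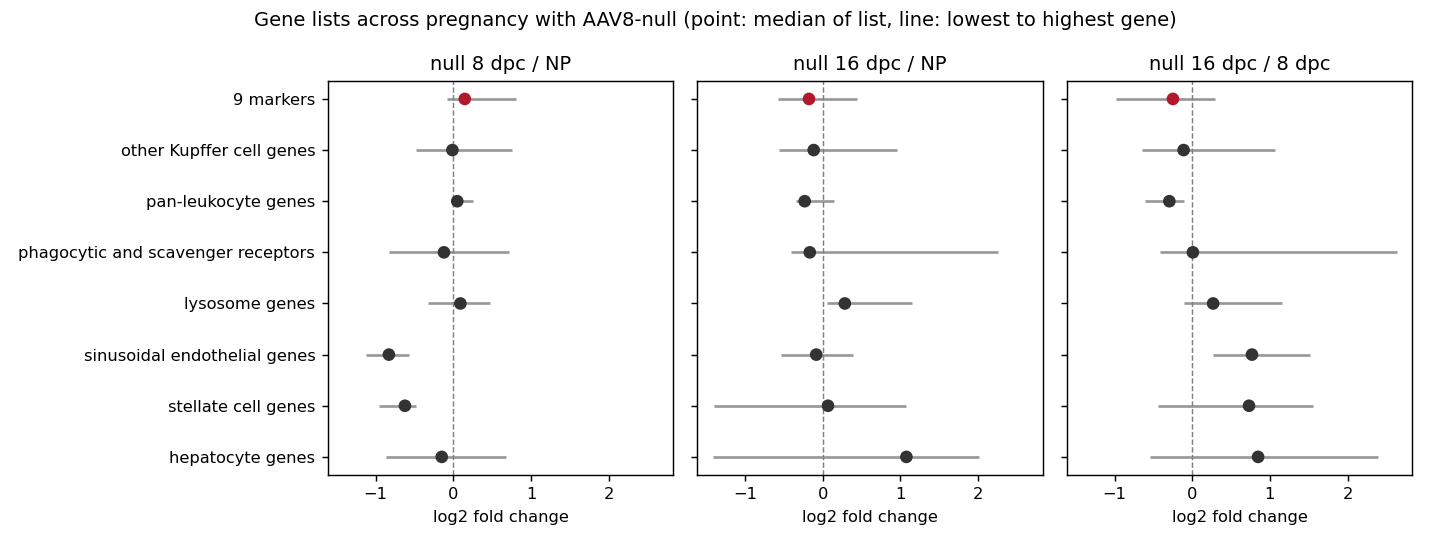
Log2 fold change of gene lists in the 3 comparisons of AAV8-null groups, with the first-named group over the second. Points are medians over the tested genes of a list, lines run from the lowest to the highest gene, and the 9 markers are in red. At 8 dpc against NP the sinusoidal endothelial (−0.83) and stellate (−0.62) medians lie left of 0, and the markers are at 0.15.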

How the data were processed

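Livers of 15 mice were compared in 5 groups of 3. Per the labels, the authors made TruSeq stranded mRNA libraries, used cutadapt 1.14 for trimming, HISAT2 2.1.0 for alignment (mm10) and HTSeq 0.12.4 for counting, and the deposited table holds raw counts per gene. Whether counting used the strand is not given in the sources used here. Counts were tested with edgeR 4.0.16 in R 4.3.3 (quasi-likelihood test, TMM, filterByExpr with a minimum count of 10, all 15 livers in 1 model with 10 residual degrees of freedom, a call at an adjusted p under 0.05). Mice are single animals, and the number of counts limits precision for counting error only. CPM use TMM library sizes, and correlations use log2 CPM with a prior count of 2. Gene positions and exon lengths come from GENCODE M21 on GRCm38. Other genes were named from 19 lists by a rule, the 3 with the highest mean CPM and those called, and the 3 genes most correlated with each marker; some that the rule picks are summarised by their list only. Ly6c2, Chil3 and F13a1 fall outside this rule and were chosen after their values were seen. A result for 1 gene of these lists is not reported here. The 9 members and the lists were chosen with earlier results of these data known. The code was tested on simulated data. Figures were drawn with matplotlib.

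Alternatives were DESeq2 1.42.0 size factors and Wald test, limma 3.58.1 voom with sample weights, library totals, 2 other filters, the compared groups alone, a fold threshold, a replicate block and each liver left out.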

Additional observations from a re-analysis of the deposited data

How the results depend on the processing

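No marker was called with TMM in any of the 7 comparisons, and this held with DESeq2 size factors, the DESeq2 Wald test, both other filters, the compared groups alone, the fold threshold and each liver left out (0 of 432 values called, 69 with another sign). With library totals, 5 markers were called for 16 dpc against NP, 6 for 16 dpc against 8 dpc with AAV8-null and 7 for 16 dpc against 8 dpc with AAV8-p21, all lower, where 48.6%, 51.9% and 34.0% of all genes were called lower; the median of all genes moved by −0.70, −0.70 and −0.59 on that scale. With voom sample weights, 1 was called for 8 dpc against NP (Cd68, adjusted p = 0.0351), beside 15.2% of all genes. For 16 dpc against 8 dpc with AAV8-p21, voom also called 1 (Ccr2, adjusted p = 0.0343), beside 14.9% of all genes. In the Cd68 comparison the lowest weights were 0.256 for the first NP liver and 0.383 for the third AAV8-null liver at 8 dpc. In the Ccr2 comparison they were 0.384 for the third AAV8-p21 liver at 8 dpc and 0.422 for liver c at 16 dpc. The cause of these calls was not tested. Of 532 values of single markers under the other settings, leaving out of livers aside, 23 had another sign and 20 were called. Ccr2 gave no value where 10 counts in every library were required, nor for AAV8-p21 against AAV8-null at 16 dpc in the compared groups alone.

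The replicate block was fitted on the 12 livers with a number and called 0 of 9 markers in the 4 comparisons it allows, as did the same 12 livers without it, an alternative chosen after seeing the data. The block could not be fitted for comparisons with the AAV8-p21 group at 16 dpc. Same-numbered livers are different mice, and 3 of 12 deviated most like a liver of their own number (mean correlation 0.00731 over 18 pairs), so the numbers were not taken as pairs. Over all genes the block called 657 against 739 for 16 dpc against NP. With 3 livers a group, 95% confidence intervals of the comparisons between groups reached 0.58 to 1.16 (log2) to either side of the estimate. The widest was that of Ccr2, at 5 to 35 counts, for AAV8-p21 against AAV8-null at 16 dpc. For 8 dpc against NP and for the viruses at 8 dpc, the interval of Marco was the widest.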

Other observations

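Genes of cells outside the macrophage lineage were read from the same fit. Of 8 hepatocyte genes at 16 dpc against NP with AAV8-null, 4 rose and 1 fell (edgeR, adjusted over all genes). Alb and Apoa1, which encode secreted plasma proteins, had log2 fold changes of 2.01 and 1.67, and Fgb, a fibrinogen chain, and Asgr1, a receptor subunit of the hepatocyte surface, rose too. Ttr, the carrier of thyroid hormone and retinol, had a log2 fold change of −1.41. All 5 were called in the same direction with library totals. Of 5 tested red cell genes, Hbb-bs, a globin gene, and Alas2, an enzyme of haem synthesis in red cells, rose, and with library totals Alas2 was called and Hbb-bs was not (edgeR adjusted p = 0.28). Of 8 stellate cell genes, Lrat, which makes retinyl esters, had a log2 fold change of −1.41. None of 5 bile duct genes, 2 tested dendritic cell genes or 2 tested inflammatory macrophage genes was called.

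Of 6 proliferation genes, Top2a, Ccnb1 and Birc5 fell from 8 to 16 dpc with AAV8-null, with log2 fold changes of −3.81, −3.59 and −3.59. The level of Top2a, a topoisomerase of dividing cells, was 17.0, 20.9 and 1.82 CPM in the 3 livers at 8 dpc and 1.52, 0.250 and 1.07 CPM at 16 dpc. Replicate 3 at 8 dpc thus lay close to the 16 dpc livers. At 8 dpc against NP the median log2 fold change of the 6 was 2.84, and none was called.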
